A study of Saccharomyces cerevisiae with 17 samples.

Results

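Yeast cells without *RRP6* and without an engineered fusion protein were compared with wild type cells. Membership followed the genotype labels and covered 4 of the 17 labelled samples, namely 2 isolates of an *rrp6* deletion and 2 isolates of wild type. The deposited tables held these samples as 3 of 15 columns, because wild type was a single column, which by its digits was a mean of several libraries. Which libraries entered that mean is not given, and the digits were not those of a mean of 2. All strains were *Saccharomyces cerevisiae* of the W303 background grown to an OD600 of 0.4 to 0.6, and the *isw2 rpd3* strain was labelled as a prototroph of that background. Total RNA was depleted of ribosomal RNA and sequenced with a strand-specific dUTP method. The study tested targeted nucleosome sliding with Chd1-Ume6, a protein that pairs the nucleosome remodeler Chd1 with the part of the repressor Ume6 that binds DNA. The other strains served here for the shared error estimate and as a background of strains that keep *RRP6*. They were the *ume6*, *isw2* and *rpd3* deletions, the *isw2 rpd3* double deletion, Chd1-Ume6 in wild type and in *ume6*, and a catalytically dead fusion in *ume6*. Chd1-Ume6 in the *rrp6* deletion, with 2 columns, was the only other group without *RRP6*. Neither the fusion's promoter nor the marker of each deletion is named in the labels.

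Rrp6 is a 3′ to 5′ exonuclease of the nuclear RNA exosome. The exosome is a barrel of subunits with a catalytic nuclease, Dis3, and in the nucleus it also carries Rrp6 and its partners Lrp1 and Mpp6. The TRAMP complex, made of a poly(A) polymerase (Trf4 or Trf5), a zinc-knuckle protein (Air1 or Air2) and the helicase Mtr4, marks RNAs for it with short tails. Transcripts that the Nrd1-Nab3-Sen1 complex terminates are handed to this machinery. They include cryptic unstable transcripts, which are degraded, and independently transcribed small nucleolar RNAs (snoRNAs), which are trimmed to their mature 3′ ends. snoRNAs guide the modification of ribosomal RNA. In the C/D box class they guide methylation, and in the H/ACA class they guide pseudouridylation.

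Of the 20 genes that rose in *rrp6*, 15 could be placed in the RefSeq annotation, and 6 of these had a snoRNA gene in front of their own 3′ end, on the opposite strand. The bases that follow those 6 snoRNA genes are shown because transcription that runs past the end of the snoRNA enters them first. Each is 30 bases of the RefSeq R64 assembly, read 5′ to 3′ on the strand of the snoRNA from the base after its annotated end. Capitals mark GTAA or GTAG, the motifs bound by Nrd1, and TCTT, the motif bound by Nab3, searched on that strand only and as DNA letters.
SNR11, facing CMC4, chrXIII:652533-652562, plus strand: ctttttttttttttcaattgctagttcata
SNR3, facing YJR129C, chrX:663943-663972, plus strand: ttttTCTTtttttttttagttatgttttat
SNR71, facing LIN1, chrVIII:411318-411347, plus strand: aaacaataaacttagtactatatagtctcg
SNR9, facing GLO4, chrXV:407918-407947, minus strand: ttgcaaatatttagactgcatgccagttac
SNR10, facing MMS2, chrVII:346231-346260, plus strand: atatacatcattatcGTAGtgaattgcacg
SNR62, facing CUE5, chrXV:409735-409764, minus strand: atttttTCTTacttccttcaagaagGTAGt
SNR11, SNR3, SNR9 and SNR10 are H/ACA snoRNAs, and SNR71 and SNR62 are C/D snoRNAs, per the RefSeq notes. GTAA or GTAG was in 2 of these 6 windows and in 17 of the 68 windows of all snoRNA genes outside introns, or 25.0%. TCTT was in 2 of the 6 and in 34 of the 68, which is 50%. In the first 150 bases, both an Nrd1 motif and TCTT were found after 4 of the 6 and after 49 of the 68, or 72.1%. For all of the 6 but SNR10, the gap is 26 to 104 bases, so these longer windows run into the facing gene.

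The *RRP6* transcript checked the labels. *RRP6* was at 77.1 FPKM in the wild type column, where FPKM counts fragments relative to transcript length and to a library's mapped total. It was at 1.68 FPKM in *rrp6* isolate 1 and 0.125 in isolate 2. The 11 columns of strains with *RRP6* lay between 38.5 and 77.1, far above both. The gene was missing in 1 column of *rrp6* with the fusion, so it was not in the fit. Its chromosome neighbours did not pass the test. *PHO80*, the cyclin of a phosphate-sensing kinase, changed by 0.10 on the log2 scale (adjusted p = 0.928), and *ALG6*, a glucosyltransferase of glycoprotein synthesis, by 0.02 (adjusted p = 0.984, limma with Benjamini-Hochberg adjustment).

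Against wild type, 20 genes rose and 7 fell among 6241 tested (limma, Benjamini-Hochberg adjusted p under 0.05), which is 0.320% and 0.112%. Unadjusted p was under 0.05 for 732 genes. At least 2-fold higher values were found for 411 genes, or 6.59%, and at least 2-fold lower values for 279, or 4.47%. The largest rises were in *CMC4*, which encodes a protein of the mitochondrial intermembrane space, *YJR129C* (*EFM3* in RefSeq), a methyltransferase of translation elongation factor 2, and *YJL047C-A*, a small reading frame without a gene name. All changes are on the log2(FPKM + 1) scale, so they understate the changes of genes with low FPKM. Wild type and *rrp6* were in tables normalized separately, and the difference between tables was estimated from the 3 groups with a column in each. The 27 calls, all of which keep their sign under every alternative run, were 53 without *rrp6* isolate 1 and 16 without isolate 2. They were 8 without either column of *ume6* or of Chd1-Ume6 in *ume6*, and 12 without either column of Chd1-Ume6 in wild type.

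**Figure D1:**
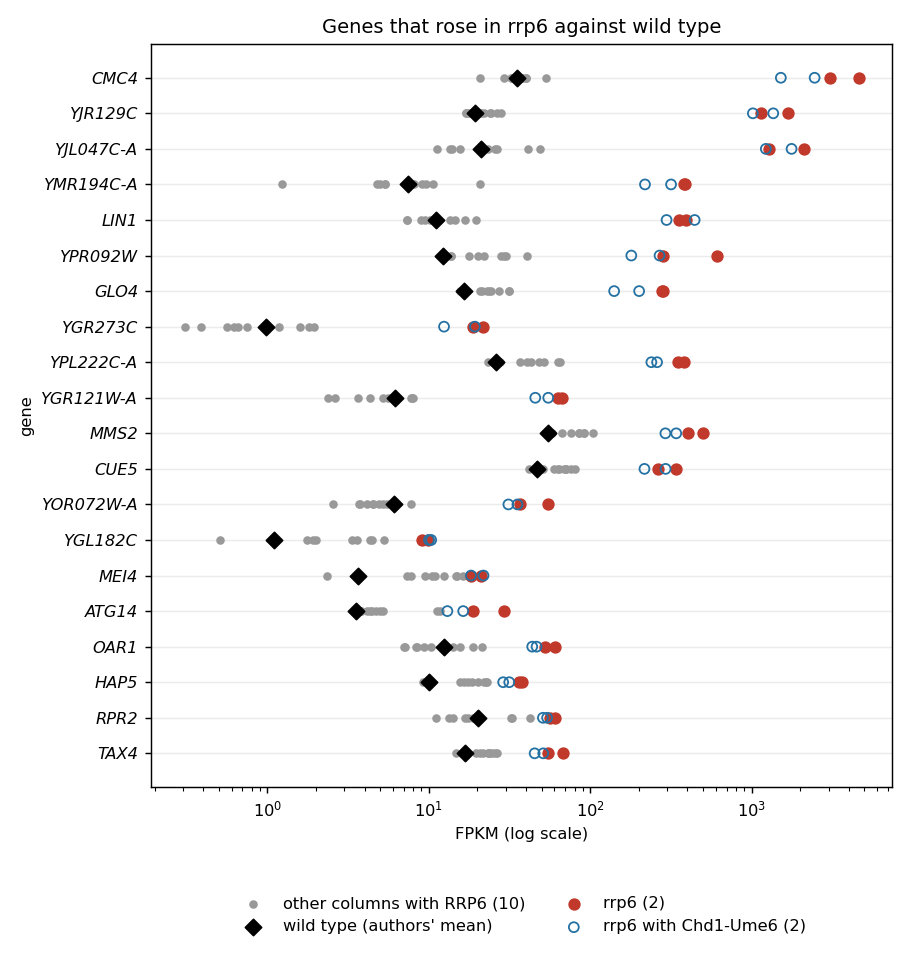
FPKM on a log scale in all 15 columns for the 20 genes that rose in *rrp6* against wild type, ordered by log2 change, with wild type as a diamond, the 2 *rrp6* isolates filled red, *rrp6* with Chd1-Ume6 as open blue circles and the 10 other columns with *RRP6* in grey. In each of the 20 genes all 4 columns without *RRP6* lie to the right of all 11 columns with it. The 20 genes were called from these same *rrp6* columns, which favours such a position, so it is no separate evidence. Among all genes tested, both *rrp6* columns lay above all 11 for 11.7%, after the table difference was removed.

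*CMC4* and *YJR129C*, which had the largest rises of all, both faced a snoRNA gene, and the other 4 facing genes that rose did so by 2.77 to 4.89 on the log2 scale. *CMC4*, which faces SNR11 across 61 bases, had 35.4 FPKM in wild type and, in *rrp6*, 3065 in isolate 1 and 4616 in isolate 2. The 11 columns with *RRP6* reached at most 53.6 FPKM, so the groups were far apart. The change of *CMC4* was 6.30 ± 0.43 (log2, SE), or 79.0-fold, with adjusted p = 0.000895 (limma). *YJR129C*, which faces SNR3 across 57 bases, had 19.3 FPKM in wild type against 1686 and 1141 in *rrp6*. Its change was 6.19 ± 0.39, or 72.9-fold, with adjusted p = 0.000895. No column with *RRP6* had more than 28.1 FPKM of *YJR129C*.

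*LIN1*, a protein of the spliceosome, faces SNR71 across 66 bases and had 11.04 FPKM in wild type against 393 and 354 in *rrp6*. It rose by 4.89 ± 0.45 (adjusted p = 0.00476, limma). *GLO4*, a mitochondrial glyoxalase, lies 26 bases from SNR9, the shortest gap of all, so that the last 4 bases of the SNR9 sequence printed above lie within its coding region. *GLO4* had 16.6 FPKM in wild type against 284 and 278 in *rrp6*, a rise of 4.004 ± 0.354 (adjusted p = 0.00476). The highest column with *RRP6* was at 19.5 FPKM for *LIN1* and 31.4 for *GLO4*, below both isolates. *MMS2*, a ubiquitin-conjugating enzyme variant of error-free DNA damage tolerance, faces SNR10 across 175 bases. It had 54.9 FPKM in wild type against 502 and 402 in *rrp6*, a rise of 2.95 ± 0.34 (adjusted p = 0.0119). *CUE5*, a ubiquitin-binding receptor of selective autophagy, faces SNR62 across 104 bases. It had 46.9 FPKM in wild type against 342 and 264 in *rrp6*, a rise of 2.77 ± 0.34 (adjusted p = 0.0147). The groups did not overlap for either gene, with *MMS2* at no more than 104 FPKM and *CUE5* at no more than 80.7 in the columns with *RRP6*. *MMS2* and *CUE5* missed the threshold without either column of *ume6* or of Chd1-Ume6 in *ume6* (adjusted p of 0.0572 to 0.0694), and *CUE5* also without either column of Chd1-Ume6 in wild type (0.0549 and 0.0558).

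In all, 27 genes faced a snoRNA gene as the nearest protein gene after its 3′ end, with gaps of 26 to 495 bases. Of these 27, 6 rose and 0 fell, against 0.320% and 0.112% of all genes tested, and 13 were at least 2-fold higher, against 6.59%. Their median change was 0.78, against 0.14 over all genes tested. Both *rrp6* columns lay above all 11 columns with *RRP6*, after the table difference was removed, for 14 of the 27 and for 11.7% of all genes. *POP6*, a subunit of the RNA-processing enzymes RNase P and RNase MRP, faces SNR46 across 114 bases. It had 17.9 FPKM in wild type against 216 and 189 in *rrp6*, a log2 difference of 3.31 that missed the threshold (adjusted p = 0.0744, limma). *KTR2*, a mannosyltransferase of the Golgi, faces SNR42 across 61 bases and had 68.5 FPKM in wild type against 187 and 203 in *rrp6*, a difference of 2.04 (adjusted p = 0.0516). Both isolates of both genes lay above every column with *RRP6*.

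The differences were larger across short gaps. A division at 120 bases, chosen after the values were seen, left 10 genes with shorter gaps, of which 9 were at least 2-fold higher and 5 rose. The exception was *VMA9*, a subunit of the vacuolar proton pump that faces SNR43 across 86 bases, with a difference of 0.39. Of the 17 genes with longer gaps, 4 were at least 2-fold higher and 1, *MMS2*, rose. The median log2 difference was 3.04 in the first set and 0.28 in the second. The second set included 4 ribosomal protein genes, *RPS14A*, *RPL31A*, *RPS8A* and *RPL42B*, at differences between -0.90 and -0.07. The libraries kept strand, but whether the authors counted reads by strand is not given, so reads of the facing gene and reads that extend from the snoRNA cannot be told apart.

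**Figure D2:**
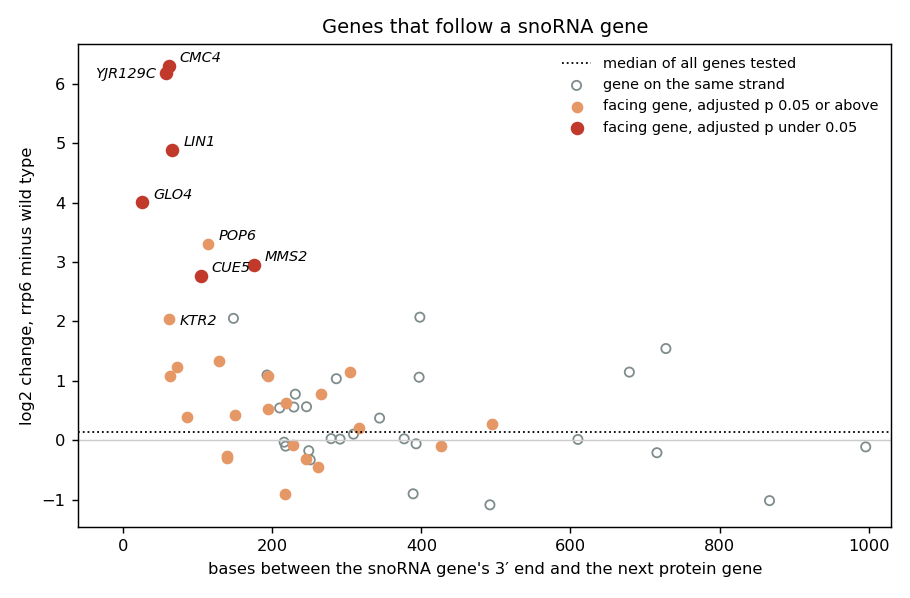
Log2 change in *rrp6* against wild type (y axis) against the bases between a snoRNA gene's 3′ end and the next protein gene (x axis), for 27 genes on the opposite strand (filled) and 27 on the same strand (open). Of the 6 facing genes that rose, 5 lie within 120 bases of the snoRNA gene, as do 10 of all 27 facing genes. The limit of 120 bases was chosen after the values were seen. No gene on the same strand passed the test, while 7 of these 27 were at least 2-fold higher, or 25.9% against 6.59% of all genes.

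Genes that followed a snoRNA gene on the same strand were looked at as the other orientation. Of the 27, 0 rose or fell, against 0.320% and 0.112% of all genes tested (limma; unadjusted p under 0.05 for 7 higher and 1 lower). Their median was 0.03, against 0.14 over all genes. In all, 7 were at least 2-fold higher, or 25.9%, against 6.59% of all genes, and 2 at least 2-fold lower, against 4.47%. Both *rrp6* columns lay above all columns with *RRP6*, after the table difference was removed, for 9 of them and for 11.7% of all genes. The highest values were those of *YDR042C*, 398 bases after SNR47, and *FLX1*, a mitochondrial flavin carrier 148 bases after SNR68. *YDR042C* had 8.23 FPKM in wild type against 72.5 and 35.8 in *rrp6* (log2 difference 2.07, adjusted p = 0.197, limma). *FLX1* had 24.2 FPKM in wild type against 98.8 and 61.5 in *rrp6* (2.05, adjusted p = 0.0636). *RGT1*, a repressor of hexose transporter genes, followed SNR69 after 728 bases and differed by 1.54 (adjusted p = 0.0857). Of the 7 genes that carry a snoRNA in an intron, 0 rose or fell (unadjusted p under 0.05 for 1, which was lower) and the median was -0.24. The difference between the facing genes and the genes on the same strand was not tested.

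Another gene that rose shares bases with a snoRNA. *YJL047C-A* is 135 bases long and on the same strand as SNR60, a C/D snoRNA, and its first 49 bases are the last 49 of the 104 bases of SNR60. The snoRNA is printed with the shared bases in capitals, from chrX:349130-349233 of R64, minus strand.
SNR60: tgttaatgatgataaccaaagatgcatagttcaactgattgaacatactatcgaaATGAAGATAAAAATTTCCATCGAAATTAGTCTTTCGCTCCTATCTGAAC
*YJL047C-A* had 21.1 FPKM in wild type against 1279 and 2101 in *rrp6*, while no column with *RRP6* was above 48.9. It rose by 6.15 ± 0.67 (adjusted p = 0.0108, limma). Reads of SNR60 and of *YJL047C-A* cannot be told apart over the shared bases. Of the other 2 genes that overlap a snoRNA gene, *YGL088W* differed by -0.20 (adjusted p = 0.940) and *IRC13* was below the filter on low values.

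Of the other 13 genes that rose, 5 have no entry in the RefSeq gene table. They were *YMR194C-A* (5.70), *YPR092W* (4.81), *YPL222C-A* (3.55), *YOR072W-A* (2.76) and *YGL182C* (2.66), where each value is the log2 change. Their places next to snoRNA genes or other genes were not looked up. The systematic name of *YMR194C-A* adjoins that of *CMC4*, which is *YMR194C-B*. Whether the 2 rises are separate was not tested. *YMR194C-A* had 7.44 FPKM in wild type against 385 and 384 in *rrp6*, and the highest column with *RRP6* was at 20.7. *YPR092W* had 12.3 FPKM in wild type against 283 and 614 in *rrp6*, so that the isolates differed more than 2-fold while both lay above the other columns, the highest of which was at 40.5. Several other genes that their systematic names place on chromosome XVI, as *YPR092W*, were also higher in isolate 2. *TIF6* was at 509 FPKM in isolate 1 and 1079 in isolate 2, *NOG1* at 190 and 561, and *RPN7* at 87.2 and 195. *ASN1* (495 and 520) and *YPL222C-A* (381.2 and 352.5), of the same chromosome, showed no such gap. A shift across this chromosome was not tested. The remaining 8 had a RefSeq entry and overlapped no snoRNA gene. None of these 8 was the nearest protein gene within 1000 bases after the 3′ end of a snoRNA gene. Places before the 5′ end of a snoRNA gene were not looked up. *YGR273C* and *YGR121W-A*, which have no gene name, rose by 3.72 and 3.16. *MEI4*, needed for the DNA breaks of meiotic recombination, had 3.66 FPKM in wild type against 21.1 and 18.2 in *rrp6*, a rise of 2.55 ± 0.31 (adjusted p = 0.0147, limma). The columns with *RRP6* reached 16.3 FPKM of *MEI4*, just under the lower isolate.

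*ATG14*, a subunit of the lipid kinase complex of autophagy, rose by 2.50 ± 0.38, from 3.53 FPKM to 29.1 and 18.8. *OAR1*, a reductase of mitochondrial fatty acid synthesis, rose by 2.42 ± 0.28, from 12.5 FPKM to 60.8 and 52.5. *HAP5*, a subunit of the activator of respiratory genes, rose by 2.30 ± 0.31, from 10.01 FPKM to 36.4 and 38.0. *RPR2*, a protein subunit of RNase P, rose by 2.28 ± 0.34, and *TAX4*, a regulator of phosphoinositide levels, rose by 1.86 ± 0.29. Adjusted p lay between 0.0119 and 0.0449 for these 5 genes. In each of them both *rrp6* isolates were above all 11 columns with *RRP6*, most narrowly in *RPR2*, where the isolates were at 60.4 and 56.1 FPKM and the highest other column at 42.4. Wild type had 20.1 FPKM of *RPR2*, and its table difference of -0.79 on the log2 scale enlarged its change. Of 26 alternative runs, *RPR2* stayed past the threshold in 5, *TAX4* and *ATG14* in 7 each, *HAP5* in 10 and *OAR1* in 17. Within the workbook only *OAR1* of the 5 passed (limma, adjusted p = 0.0167, the others 0.0614 to 0.210).

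The same question could be asked without the wild type column, within the 7 workbook columns, where 4 lacked *RRP6* and 3 had it. This fit had terms for *rrp6*, *ume6* and the fusion, and it assumed that the fusion acts alike with and without Rrp6. It called 57 genes higher, or 0.913%, and 0 lower (limma, adjusted p under 0.05; unadjusted p under 0.05 for 85 lower), with the same 2 *rrp6* columns as the comparison above. Of the 20 genes that rose against wild type, 20 were higher and 14 passed the threshold. *YJL047C-A* changed by 6.88, *YJR129C* by 5.85, *CMC4* by 5.32, *LIN1* by 4.77 and *GLO4* by 2.85. *POP6* (2.96, adjusted p = 0.0235) and *KTR2* (3.02, adjusted p = 0.0167) passed the threshold here, and so did *DAS1*, an F-box protein that faces SNR128 (1.90, adjusted p = 0.0461). In all, 8 of the 27 facing genes passed, as did *YDR042C* among the genes on the same strand. The 57 calls were 5 without isolate 1 of *rrp6* with the fusion and 4 without its isolate 2.

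**Figure D3:**
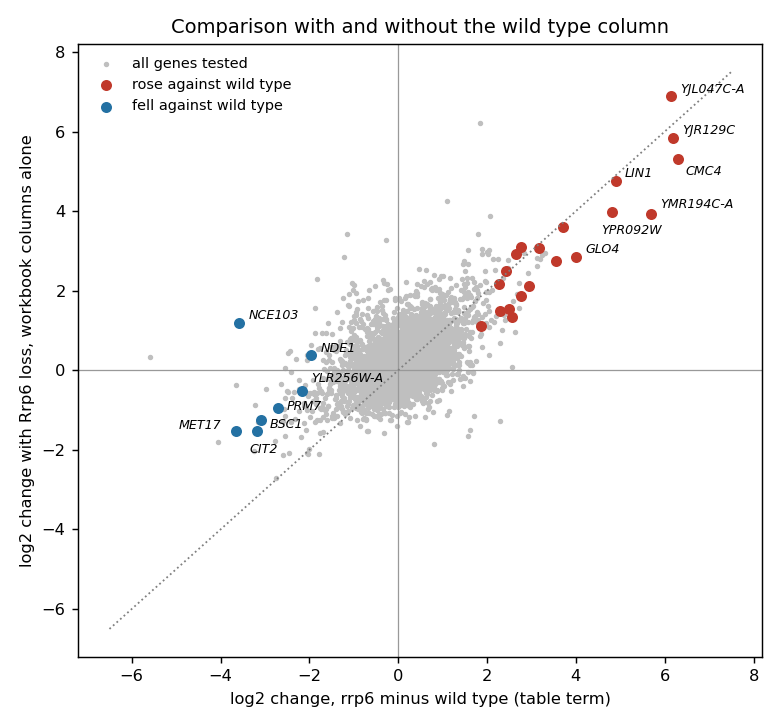
Log2 change against wild type (x axis) and log2 change with Rrp6 loss from the workbook columns alone (y axis) for the 6241 genes tested, with the 20 genes that rose in red and the 7 that fell in blue. The 2 axes share the *rrp6* columns, and the dotted line marks equal values. The genes that rose lie from 1.11 to 6.88 on the y axis, 16 of the 20 below the line, while *NCE103* and *NDE1* are above 0 on the y axis and below 0 on the x axis.

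In cells with the fusion, *rrp6* with Chd1-Ume6 was compared with wild type with Chd1-Ume6. These 4 columns are not among the 3 of the comparison without the fusion, although the table difference and the error are shared. There 344 genes rose, or 5.51%, and 15 fell, or 0.240% (limma). All 20 genes that had risen without the fusion were among those that rose. *CMC4* was at 1519 and 2460 FPKM in *rrp6* with the fusion, *YJR129C* at 1019 and 1363, and *LIN1* at 298 and 444. Their log2 changes were 5.20, 5.59 and 4.42. Of the 27 genes facing a snoRNA gene, 11 rose, and 5 of the 27 on the same strand did, against 5.51% of all genes tested. The 359 calls in all, or 5.75%, were 9 without the workbook column of wild type with Chd1-Ume6, 52 without isolate 2 of *rrp6* with the fusion and 172 without its isolate 1. They were between 167 and 228 without any one of the other bridging columns. The effect of losing Rrp6 differed with and without the fusion for 2 genes, or 0.0320%, and neither was among the 20 genes that rose.

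The 7 genes that fell stood less clearly apart. *MET17*, the sulfhydrylase that makes homocysteine, had 881 FPKM in wild type against 117 and 64.9 in *rrp6*, below all columns with *RRP6*, the lowest of which was at 318. It fell by 3.64 on the log2 scale, with an SE of 0.58 (adjusted p = 0.0485, limma). *NDE1*, the external NADH dehydrogenase of mitochondria, had 979 FPKM in wild type against 235 and 271 in *rrp6*, also below every column with *RRP6*, and it fell by 1.96, with an SE of 0.31 (adjusted p = 0.0449). *NCE103*, carbonic anhydrase, had 284 FPKM in wild type against 92.4 and 65.3 in *rrp6*, and it fell by 3.58, with an SE of 0.47 (adjusted p = 0.0221). For *NCE103*, 3 first-table columns with *RRP6* lay between its *rrp6* columns as deposited, and both *rrp6* columns were lowest only after the table difference was removed. *CIT2*, the peroxisomal citrate synthase, had 513 FPKM in wild type against 171 and 137 in *rrp6*, and it fell by 3.18, with an SE of 0.34 (adjusted p = 0.0108). The *rrp6* columns of *CIT2* were also lowest only after that step. The table difference that was removed was 1.44 on the log2 scale for *CIT2* and 1.72 for *NCE103*. It is a part of each of these 2 falls, which are therefore larger than the FPKM values above show.

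*BSC1*, *PRM7* and *YLR256W-A* fell by 3.09, 2.71 and 2.17, but their *rrp6* columns overlapped strains with *RRP6*. Both *rrp6* columns lay below all 11 columns with *RRP6*, after the table difference was removed, for 4 of the 7 and for 3.97% of all genes. The 7 genes were called from these same *rrp6* columns, which favours such a position, so the 4 of 7 is no separate evidence. *PRM7*, a membrane protein regulated by pheromone, had 92.0 FPKM in wild type against 9.84 and 7.67 in *rrp6*, and the strains with *RRP6* went down to 2.57. For these 3 genes, and for *CIT2* and *NCE103*, all 7 other columns of the first table were also below the wild type column, by as much as 5.24 on the log2 scale for *BSC1* in *isw2 rpd3*. These strains share that 1 wild type column with the *rrp6* comparison. Within the workbook 0 of the 7 passed the threshold, and *NCE103* and *NDE1* were higher there, by 1.20 (adjusted p = 0.682) and 0.38 (adjusted p = 0.831). Without *rrp6* isolate 2 all but *CIT2* missed the threshold (adjusted p of 0.0553 to 0.0799), and *NDE1* also did without isolate 1 (0.0586). Without either *ume6* column all 7 missed it (0.055 to 0.127).

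**Figure D4:**
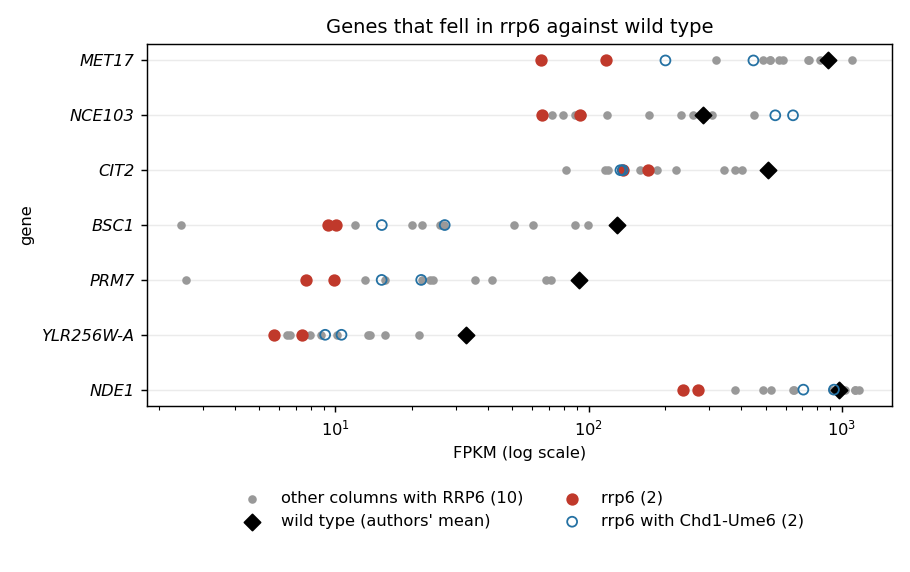
FPKM on a log scale in all 15 columns for the 7 genes that fell in *rrp6* against wild type, with the same symbols as for the genes that rose. Both red *rrp6* points lie left of all columns with *RRP6* for *MET17* and *NDE1* only, and the wild type diamond is the rightmost point with *RRP6* for *CIT2*, *BSC1*, *PRM7* and *YLR256W-A*.

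The genes of the machinery around Rrp6 gave no calls against wild type. Over all genes tested 0.320% rose and 0.112% fell, so lists this small would rarely hold a call. Of the 10 genes of the exosome core 0 rose or fell (limma; 0 at unadjusted p under 0.05), and all differed by less than 0.50 on the log2 scale, with a median of 0.13 against 0.14 over all genes tested. *DIS3*, the catalytic nuclease, had 95.6 FPKM in wild type against 55.7 and 76.7 in *rrp6* (log2 difference -0.03, adjusted p = 0.986, limma). Of 7 nuclear cofactors 0 passed the test (1 at unadjusted p under 0.05), and the largest differences were 0.97 for *AIR2* and 0.96 for *AIR1*, zinc-knuckle subunits of TRAMP (adjusted p = 0.316 and 0.555). *MTR4*, its helicase, differed by -0.27, and *LRP1*, the direct partner of Rrp6, by -0.20. The 4 genes of the Ski complex, which feeds the cytoplasmic exosome, and 9 other RNA exonucleases gave 0 calls (0 and 2 at unadjusted p under 0.05).

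*NRD1*, which is subject to termination by its own product, was at 64.7 FPKM in wild type, the highest of the columns with *RRP6*, and at 201 and 151 in *rrp6*. The difference of 1.45 against wild type missed the threshold (adjusted p = 0.101, limma), whereas *NRD1* rose by 2.67 within the workbook (adjusted p = 0.0235), where the columns with *RRP6* were between 32.3 and 46.2 FPKM. Of the 11 genes of the Nrd1 pathway 0 passed against wild type (4 at unadjusted p under 0.05) and 10 were above 0, with a median of 0.71. *NAB3*, the RNA-binding partner of Nrd1, had 32.4 FPKM in wild type against 52.6 and 108 in *rrp6* (1.47, adjusted p = 0.313), and the phosphatase *SSU72* differed by 1.14 (adjusted p = 0.233). *NAB3* is on chromosome XVI, like *YPR092W* and the other genes above that were higher in isolate 2 than in isolate 1. Of 9 genes known for attenuation by Nrd1-dependent termination, which include *NRD1*, 0 passed (4 at unadjusted p under 0.05). *TIS11*, which degrades mRNAs when iron is scarce, differed by 1.18 (adjusted p = 0.175), while *ADE12* and *URA2* of nucleotide synthesis differed by -1.37 and -0.78. Within the workbook, without the wild type column, *TIS11* differed by 1.45, *ADE12* by -0.002 and *URA2* by -0.14. The median of these 9 genes was 0.18 against wild type and 0.67 within the workbook. The *rrp6* isolates were at 191 and 75.6 FPKM of *ADE12*. Of the 11 protein subunits of RNase P and RNase MRP, 1 rose, *RPR2*, against 0.320% of all genes, and 10 were above 0, against 62.6%, with a median of 0.64.

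Lists of growth and metabolism gave no calls, where 0.320% of all genes rose and 0.112% fell, and their medians differed in sign. Of all genes tested 37.4% were below 0. The ribosome assembly list had 44 of 72 genes above 0 (median 0.06) and the proteasome list 26 of 33 (0.14), while the lists that follow had medians below 0. Of 20 sulfur and methionine genes, a list that does not hold *MET17*, 18 were below 0 and 12 were at least 2-fold lower, with a median of -1.49, but 0 passed (limma; 13 at unadjusted p under 0.05). *MET5* and *MET10*, subunits of sulfite reductase, were at 124 and 123 FPKM in wild type. *MET5* was at 24.1 and 18.4 FPKM in *rrp6* and *MET10* at 25.5 and 23.7, below all columns with *RRP6* (log2 differences of -2.42 and -2.11, adjusted p = 0.0516 and 0.0557, limma). The median of this list was -0.33 within the workbook. Of 16 genes of the phosphate response, 14 were below 0 and the median was -1.42, but 0 passed (8 at unadjusted p under 0.05), and the 2 isolates differed. Within the workbook its median was -0.76. *PHO89*, a phosphate transporter, was at 410 FPKM in wild type, 26.3 in isolate 1 and 2.70 in isolate 2, while the other strains ranged from 3.04 to 508. The respiratory chain (median -0.81, 32 of 34 below 0), amino acid synthesis (-0.54, 34 of 34) and glycolysis and fermentation (-0.53, 16 of 16) also gave 0 calls, with 17, 7 and 1 at unadjusted p under 0.05. Within the workbook, without the wild type column, their medians were -0.11, -0.36 and -0.43, and 0 genes of the respiratory chain were at unadjusted p under 0.05. In cells with the fusion the median of the respiratory chain was 0.10. Among ribosomal protein genes 124 of 136 were below 0, with a median of -0.40 and 0 calls (13 at unadjusted p under 0.05), and the median within the workbook was -0.30.

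**Figure D5:**
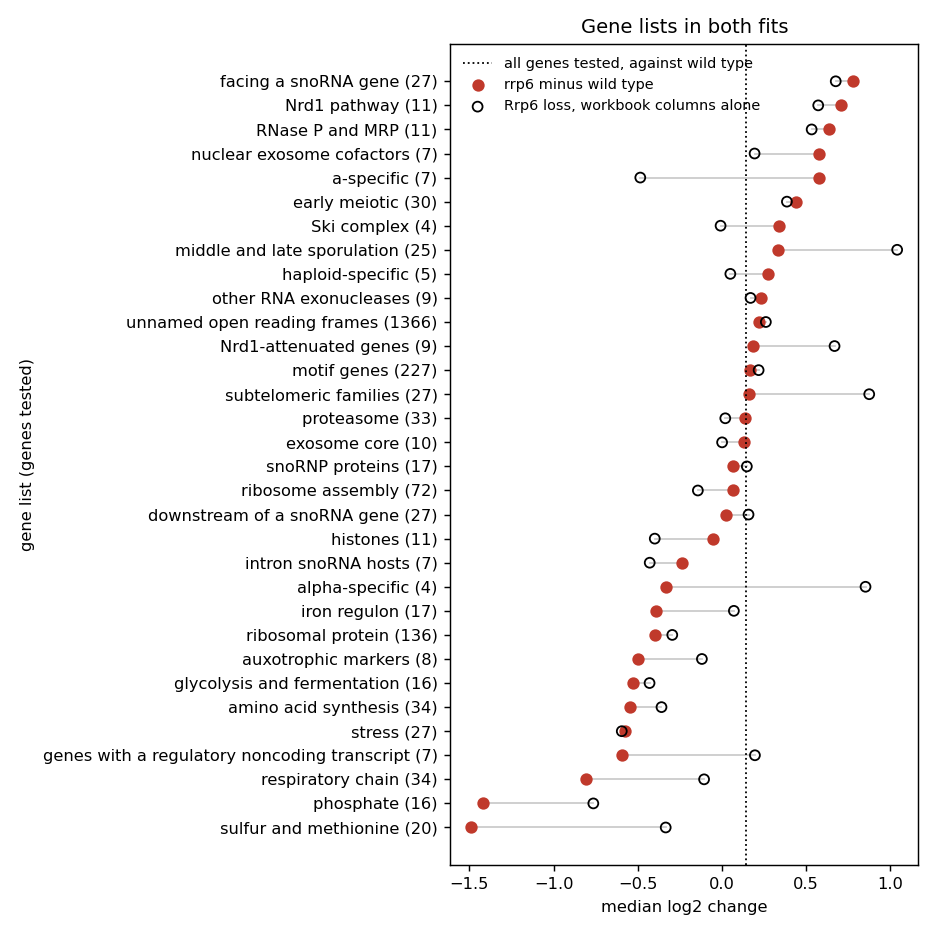
Median log2 change of each gene list against wild type (red) and from the workbook columns alone (open), with the number of genes tested in brackets and the median of all genes tested as a dotted line at 0.14. The genes facing a snoRNA gene and the Nrd1 pathway lie to the right in both, at 0.78 and 0.71 against wild type and 0.68 and 0.57 within the workbook, and the sulfur list moves from -1.49 to -0.33.

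Of 30 early meiotic genes 1 rose, *MEI4*, against 0.320% of all genes, and 23 were above 0, against 62.6%, with a median of 0.44. The list includes *YNL247W* (*CRS1* in RefSeq), a cysteinyl-tRNA synthetase that is no meiotic gene, with 113 FPKM in wild type against 81.2 and 94.0 in *rrp6*. *SPO11*, which makes the breaks of recombination, had 2.44 FPKM in wild type against 6.34 and 5.77 in *rrp6* (1.08, adjusted p = 0.190, limma), whereas it reached 24.9 in a strain with *RRP6*. *IME2*, a kinase of meiotic entry, had 5.76 FPKM in wild type against 3.44 and 3.06 in *rrp6*. Of 25 middle and late sporulation genes, 0 passed against wild type (6 at unadjusted p under 0.05) and 4 rose within the workbook, against 0.913% of all genes. Among these 4, *SPR3*, a sporulation septin, had 1.39 FPKM in wild type against 16.6 and 10.6 in *rrp6* (2.84, adjusted p = 0.0516 against wild type; 2.94, adjusted p = 0.0482 within the workbook). The groups did not overlap, since no column with *RRP6* was above 3.04 FPKM. *SPO77*, needed for the spore wall, had 8.68 FPKM in wild type against 22.9 and 19.3 in *rrp6* (1.84, adjusted p = 0.0516; 2.14, adjusted p = 0.0235).

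The mating type markers were mostly those of **a** cells. The **a**-specific receptor gene *STE2* had 219 FPKM in wild type against 295 and 282 in *rrp6*, and the alpha-specific receptor gene *STE3* was at 3.47, 2.11 and 1.44. *MF(ALPHA)1*, also alpha-specific, was at 1.16, 0.41 and 2.27. The alpha-specific *SAG1* (15.5, 15.1 and 11.7) and *MF(ALPHA)2* (8.67, 9.475 and 6.30) were higher. In wild type *SAG1* was above the lowest **a**-specific gene, *ASG7*, at 11.5 FPKM, while the other **a**-specific genes were at 38.75 FPKM or more. Of 7 **a**-specific, 4 alpha-specific and 5 haploid-specific genes 0 passed the test, against 0.433% of all genes (1, 0 and 0 at unadjusted p under 0.05). The tables hold 15 noncoding RNAs, a list noticed after the values were seen, of which 10 were tested and 0 passed (3 at unadjusted p under 0.05). *SRG1*, a noncoding RNA transcribed across the promoter of the serine synthesis gene *SER3*, had 76.3 FPKM in wild type against 167 and 194 in *rrp6*, above every column with *RRP6* (1.28, adjusted p = 0.174, limma). *SER3* had 203 FPKM in wild type against 81.2 and 53.4 in *rrp6* (-1.63, adjusted p = 0.219). Strains with *RRP6* went down to 67.2 FPKM of *SER3*, so the groups overlapped. Within the workbook *SER3* differed by 0.45 (adjusted p = 0.707, limma) and *SRG1* by 1.27 (adjusted p = 0.159). A link between *SRG1* and *SER3* was not tested. *RPR1*, the RNA subunit of RNase P, had 11680 FPKM in wild type against 32910 and 24110 in *rrp6*, a difference of 0.29 after the table difference (adjusted p = 0.835). *TLC1*, the telomerase RNA, had 295 FPKM in wild type against 569 and 583 in *rrp6* (0.63, adjusted p = 0.498).

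Depth per library is unknown, because the columns hold no counts. Summed FPKM lay between 889031 and 1132504 per column, with 129 to 262 genes missing. The 2 *rrp6* isolates correlated across genes with r = 0.964 and were at least 2-fold apart for 416 genes. The wild type column entered the fit as 1 library. Values are relative within a bulk culture, where fewer cells with a transcript and less transcript per cell cannot be told apart.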

How the data were processed

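The members and gene lists were chosen with earlier results of these data known. Values were deposited by the authors as log2 abundance in a first table of 8 columns and, per the file headers, as log2 FPKM in a workbook of 7 columns. The *ume6* sheet of the workbook was deposited as log10, since its SD was 0.31 times the mean of the others, close to 0.301. Cufflinks 2.2.1, Cuffdiff, TopHat2, SAMtools and CASAVA appear in the submitters' processing notes, without roles. The build, the annotation and the use of strand in counting were not given in the sources used here. In thousandths, FPKM of 100 to 500 were whole in 100% of genes in 14 columns but in 15.6% in wild type (31.9% when doubled, 92.4% when multiplied by 6; a value was whole within 0.05 of an integer), so that column was read as a mean of several libraries. The planned design had assumed 1 column per library. Values of NA were treated as missing.

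limma 3.58.1 in R 4.3.3 was run on log2(FPKM + 1), after each column was taken off its log scale. The fit had 15 columns, 10 groups, a term for the table and an abundance trend, and it left 4 residual degrees of freedom. Of 6644 genes, 6241 were tested, which were present in every column and reached 1 FPKM in 2 or more. The threshold was an adjusted p of 0.05 (Benjamini-Hochberg). Groups with 1 column borrow the spread of the rest. Since isolates may not be separate cultures, the p-values cover only the variation among columns. The scripts were tested on simulated data. Genes were named if they were *RRP6* or its neighbours, among the 15 largest changes past the threshold beyond all columns with *RRP6*, or list members past the threshold or among the 4 largest others. The rest of the 27 called genes and the genes next to snoRNAs were named after their values were seen. Of the 6644 IDs, 5992 matched a locus tag of RefSeq R64, which was used for neighbours within 1000 bases and for sequences. That assembly may differ from the build of the files.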

Additional observations from a re-analysis of the deposited data

Results flagged for a closer look

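The effect of losing Rrp6 differed with and without Chd1-Ume6 for 2 genes (limma, adjusted p under 0.05). *NCE103*, carbonic anhydrase, was at 92.4 and 65.3 FPKM in *rrp6* and at 642 and 547 in *rrp6* with the fusion, whose columns lay above every other column. The effect with the fusion exceeded that without it by 4.97 on the log2 scale (adjusted p = 0.0302). *PCA1*, a metal-transporting ATPase, was at 78.0 FPKM in wild type, 28.8 and 31.4 in *rrp6*, and 71.3 and 89.6 in *rrp6* with the fusion. The strains with *RRP6* ranged from 15.1 to 170 FPKM of *PCA1*, and its effect with the fusion exceeded that without it by 3.38. The count of 2 was 0 without either column of *ume6*, either column of Chd1-Ume6 in *ume6*, the workbook column of wild type with Chd1-Ume6 or isolate 2 of *rrp6* with the fusion. It was 1 without *rrp6* isolate 2, 47 without *rrp6* isolate 1 and 17 without isolate 1 of *rrp6* with the fusion. Both effects rest on single columns of wild type or of a bridging strain.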

How the results depend on the processing

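All 27 genes called against wild type kept their direction under the 26 alternatives run, with 405 of these gene values past the threshold and 297 not. The count of 27 became 43 with a pseudocount of 5, 59 with no table term and 45 with no abundance trend. It became 8 without the *ume6* group, 8 without Chd1-Ume6 in *ume6* and 12 without Chd1-Ume6 in wild type as a bridge, and 1, 0 and 2 with only the *ume6*, Chd1-Ume6 in *ume6* or Chd1-Ume6 in wild type group as the bridge. Leaving out 1 column at a time gave 8 to 53. The count of 6 facing genes was 0, 0 and 1 with those single bridges and 4 to 7 with 1 column left out. Calls in cells with the fusion went from 359 to 110 after quantile normalization, to 188 after scaling to the median gene, and to 9 to 352 with 1 column left out. The difference between both effects went from 2 genes to 0 after quantile normalization, and to 0 to 47 with 1 column left out. Within the workbook, 57 became 7 and 34 under the same scalings, and 4 to 73 with 1 column left out. The isolate differences of both *rrp6* groups correlated at -0.337, so isolate 1 of one group tended to differ as isolate 2 of the other did. No source used here says whether the isolate numbers of both groups stand for shared cultures or batches. A replicate block for them gave 14 genes against wild type, 204 with the fusion and 12 within the workbook. The crossed block, added after the data were seen, gave 72 against wild type, 46 for the difference and 17 within the workbook. The cause of these shifts was not tested, except that fewer bridging columns leave fewer degrees of freedom.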

Other observations

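Genes of the subtelomeric families *PAU*, *COS*, *AAD* and *FLO* were near the middle of all genes against wild type, with a median log2 change of 0.16 over 27 genes, 0 rises and 0 falls (limma; 3 at unadjusted p under 0.05). Within the workbook their median was 0.88 and 2 rose, against 0.913% of all genes, while in cells with the fusion the median was 0.90 and 9 rose, against 5.51%. *COS4*, of unknown function, was at 1.52 FPKM in wild type, 12.9 and 8.78 in *rrp6*, and 12.0 and 19.5 in *rrp6* with the fusion. One strain with *RRP6* had 15.2 FPKM of *COS4*, so the groups overlapped. These families have near-identical copies, and how the authors counted reads shared between copies is not given.

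Reading frames with only a systematic name in the deposited table made up 1366 of the 6241 genes tested. Some have a name in RefSeq, such as *YJR129C* (*EFM3*) and *YNL247W* (*CRS1*). Of the 1366, 9 rose against wild type, or 0.659% against 0.320% of all genes, and *YJR129C* was among the 9. In addition, 1 fell, against 0.112% of all genes, and 30 rose within the workbook, where 0.913% of all genes did. Genes that carry the motif entry of the deposited table numbered 227, of which 3 rose, or 1.32% against 0.320% of all genes, and 0 fell, against 0.112%.

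The genes of ribosome assembly (median 0.06, 72 genes), snoRNP proteins (0.06, 17), the proteasome (0.14, 33), histones (-0.05, 11), the iron regulon (-0.39, 17), the stress response (-0.58, 27) and genes with a regulatory noncoding transcript (-0.59, 7) gave 0 calls against wild type (limma), with 0, 1, 0, 1, 6, 3 and 3 at unadjusted p under 0.05. Over all genes tested 0.320% rose and 0.112% fell. Of 8 auxotrophic marker genes, *MET17* fell. *LEU2* had 227 FPKM in wild type against 112 and 91.4 in *rrp6* (-1.86, adjusted p = 0.0502).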
